A study of Mus musculus with 12 samples.

Results

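The S100 genes encode small calcium-binding proteins, and 9 of them were followed here in mouse hearts after acute pressure overload, namely S100a1, S100a4, S100a6, S100a8, S100a9, S100a10, S100a11, S100a13 and S100a16. They were chosen by gene symbol: 18 symbols of the mouse family were looked for among the 13552 genes of the expression table, 9 were found, and the other 9 were not analysed here. RNA from whole hearts of 12 mice labelled C57BL/6 was sequenced 9 h after surgery, with 3 mice in each of 4 groups. WT sham and KI sham hearts came from Wild-type mice and Bcl-xL S14A KI mutant mice given sham surgery, and WT TAC and KI TAC hearts came from mice of the same genotypes given transverse aortic constriction (TAC), an operation in which a ligature narrows the aorta and so loads the left ventricle with pressure. The mice were male and 8 to 10 weeks old at surgery. The knock-in (KI) allele replaces serine 14 of Bcl-xL, a protein that protects cells from death, with alanine in every cell of the animal, and the study's question was what this phosphorylation site does under load. The methods state that WT mice were bought from a supplier, whereas the KI line was made in embryonic stem cells, crossed with CMV-Cre mice to remove the selection cassette and backcrossed to C57BL/6J, so the line and its breeding cannot be told apart from the allele in these groups.

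S100 proteins carry a pair of EF-hand loops, usually work as dimers, and expose a surface for partner proteins when calcium binds. S100A8 and S100A9 form calprotectin, which is stored in neutrophils and monocytes and, once released, acts as an alarmin on Toll-like receptor 4 and the receptor RAGE. S100A10 and S100A11 pair with annexins at membranes, S100A4 and S100A6 are found in stromal and motile cells, and S100A1 is the abundant cardiomyocyte form, known for its action on the calcium release channel and the calcium pump of the sarcoplasmic reticulum. S100A10 differs from the others in that it does not need calcium to take its active shape.

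All 9 genes lay on chromosome 3 of the mouse genome build GRCm38, in 2 stretches. The first ran from S100a1 (90511034 to 90514392, minus strand) through S100a13 (90514435 to 90524581), S100a16 (90537254 to 90543151), S100a4 (90603771 to 90606045), S100a6 (90612882 to 90624181) and S100a8 (90668978 to 90670035), all on the plus strand, to S100a9 (90692632 to 90695721, minus strand). The second held S100a11 (93520488 to 93526287) and S100a10 (93555080 to 93564643), both on the plus strand. All are annotated as protein coding. S100a4 overlaps a predicted gene, Gm42674, on the same strand, so the division of reads between them is uncertain.

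The bases just upstream of S100a8, S100a9, S100a4 and S100a11 are shown because these members were higher in every TAC heart than in any sham heart of both genotypes, and the gap between S100a1 and S100a13 because it starts these neighbours in opposite directions. The sequences are RefSeq's, build GRCm38.p6, printed 5′ to 3′ on each gene's own strand, and end just before the first annotated base of the gene. Capitals mark matches to short motifs that were searched on both strands. The motifs were the AP-1 site TGANTCA, a C/EBP core TTNNGNAA, the outer bases of an NF-kB site (GGG and CC with 5 bases of any kind between them), a TATA box TATAAA, and the SRF and MEF2 sites by name.
S100a8, chr3:90668821-90668977, plus strand: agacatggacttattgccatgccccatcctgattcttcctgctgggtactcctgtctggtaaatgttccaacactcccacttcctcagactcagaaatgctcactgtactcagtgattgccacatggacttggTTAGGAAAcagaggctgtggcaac
S100a9, chr3:90695722-90695971, minus strand: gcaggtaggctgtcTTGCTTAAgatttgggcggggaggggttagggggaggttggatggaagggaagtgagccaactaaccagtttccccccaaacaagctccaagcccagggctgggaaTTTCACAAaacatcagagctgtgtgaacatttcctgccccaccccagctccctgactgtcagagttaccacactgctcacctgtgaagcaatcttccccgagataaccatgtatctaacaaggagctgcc
S100a4, chr3:90603520-90603769, plus strand: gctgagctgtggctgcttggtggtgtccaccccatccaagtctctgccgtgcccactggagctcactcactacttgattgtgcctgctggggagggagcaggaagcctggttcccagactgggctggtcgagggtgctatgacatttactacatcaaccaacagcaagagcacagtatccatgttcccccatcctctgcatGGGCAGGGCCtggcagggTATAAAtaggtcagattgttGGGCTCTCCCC
S100a11, chr3:93520246-93520487, plus strand: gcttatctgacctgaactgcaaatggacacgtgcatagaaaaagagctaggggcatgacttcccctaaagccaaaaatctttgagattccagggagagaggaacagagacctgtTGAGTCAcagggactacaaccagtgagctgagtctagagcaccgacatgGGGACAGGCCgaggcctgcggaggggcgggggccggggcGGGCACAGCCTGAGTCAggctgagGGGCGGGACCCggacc
Gap between S100a1 and S100a13, chr3:90514393-90514434, plus strand: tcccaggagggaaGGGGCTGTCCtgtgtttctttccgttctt

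Windows of 250 bases before to 50 bases after a RefSeq start were given for 8 members, 9 windows in all, and none was read for S100a10. The window of S100a11 held 2 AP-1 matches, both spelled tgagtca, which began 136 and 38 bases upstream of the RefSeq start, the nearer one directly after an NF-kB match. An AP-1 match is present in 7.79% of all 32544 windows, and 1 of the 2 windows of S100a16 was the only other one among the members to hold it. S100a4 and S100a8 held a TATA box that began 31 and 30 bases upstream of the RefSeq start, a motif found in 13.6% of all windows. In S100a8 this box lies within the longer GENCODE gene model and so is not in the printed stretch. In S100a9, TATAAA begins at the first annotated base itself. C/EBP core matches were present in the windows of S100a8 and S100a9 and in no other member's, against 40.7% of all windows, and NF-kB outer bases were in 51.0% of all windows and in every member window but those of S100a8 and S100a9. SRF and MEF2 matches, which 1.64% and 3.16% of all windows hold, were in none of the member windows. A match to such letters does not show that a factor binds there.

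Expression is given as RPKM, a read count divided by exon length and library size, so levels of different genes can be set side by side. The 12 libraries held 23650191 to 32455166 reads on genes. The labelled tissue was borne out by the cardiomyocyte markers, whose 8 genes summed to between 15177 and 25754 RPKM in every heart. Bcl2l1, which encodes Bcl-xL, ranged from 6.59 to 19.1 RPKM in the WT sham, WT TAC and KI sham hearts and from 24.5 to 37.0 RPKM in the KI TAC hearts, and since the allele changes only codon 14 this level does not check the genotype labels. In whole-heart RNA, more cells of a type and more RNA per cell cannot be told apart, and this holds for every value below.

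S100a1 was the most abundant member in every group. It averaged 277 RPKM in WT sham and 269 RPKM in KI sham hearts and made up 84.9% to 89.8% of the summed RPKM of the 9 genes in sham hearts. In WT sham hearts S100a11 (12 RPKM) and S100a10 (11.1 RPKM) came next with overlapping ranges, then S100a13 (5.57), S100a16 (5.55) and S100a6 (3.81), which overlapped from each to the next. S100a4 (0.374), S100a9 (0.265) and S100a8 (0.186) formed a lowest tier of mean RPKM, with all values below those of S100a6 and with ranges that overlapped one another. The order in KI sham hearts was the same down to S100a10, and S100a4, S100a8 and S100a9 were again lowest. In WT TAC hearts S100a9 (2.92 RPKM), S100a4 (2.92) and S100a8 (1.80) still had the lowest means. In KI TAC hearts S100a9 stood higher in the order, with a mean of 7.16 RPKM between S100a6 (7.35) and S100a13 (6.34) and with overlapping ranges, while S100a8 (3.68) and S100a4 (1.65) were lowest. The share of S100a1 in the summed RPKM was 69.7% to 78.1% in WT TAC and 75.6% to 83.2% in KI TAC hearts, in both below the lowest sham heart.

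**Figure D1:**
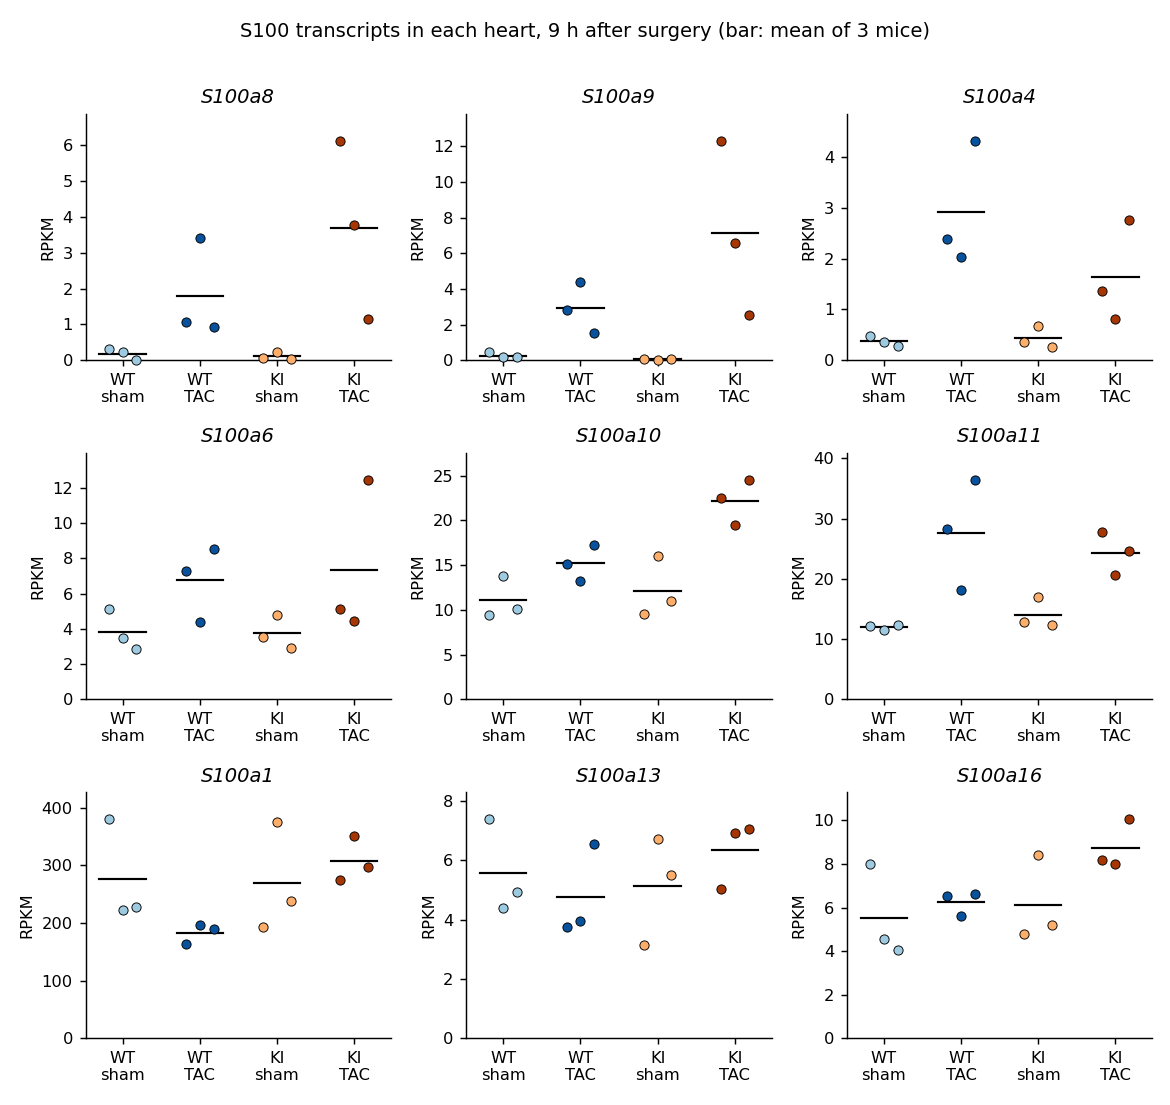
RPKM (y axis, from 0, a separate scale for each gene) of the 9 S100 genes in each of the 12 hearts, with 1 point per mouse and a bar at the mean of each group of 3. S100a8, S100a9, S100a4 and S100a11 are higher in every TAC heart than in any sham heart of the same genotype, while S100a1, S100a13 and S100a16 are spread widely within the sham groups.

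In WT hearts, 3 of the 9 members rose after TAC (S100a4, S100a9 and S100a11), where 6.96% of the 11240 genes tested were called higher, and none fell, where 4.60% of all genes were called lower. In KI hearts 5 members rose (S100a4, S100a8, S100a9, S100a10 and S100a11), where 8.57% of all genes were called higher and 14.7% lower. The median log2 fold change of the members was 0.67 in WT and 0.76 in KI hearts, beside 0.04 and -0.10 over all genes tested. S100a4, S100a8 and S100a9 reached the expression filter (1 RPKM in at least 3 mice) through TAC hearts alone, so they could enter only by being high there. The counts and medians that include them, and their own p-values between TAC and sham hearts, are descriptions. Every TAC heart was above every sham heart of its genotype for 4 members in WT and 5 in KI, where this held for 20% and 13.6% of all genes. Of the 6 members that reached 1 RPKM in all 12 hearts, 1 rose in WT hearts (S100a11) and 2 in KI hearts (S100a10 and S100a11). Calls are limma's, at a Benjamini-Hochberg adjusted p of 0.05 over all genes tested, and log2 fold changes are on the log2(RPKM + 1) scale, which understates the change of genes near or below 1 RPKM.

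The alarmin genes were nearly silent in sham hearts. S100a8 stood at 0.314, 0.244 and 0 RPKM in the WT sham mice and at 0.0590, 0.239 and 0.0444 RPKM in the KI sham mice, which is 11 and 7 reads per group of 3. After TAC it reached 1.06, 3.41 and 0.938 RPKM in WT hearts and 6.13, 3.78 and 1.14 RPKM in KI hearts, or 106 and 237 reads. Every TAC heart was above every sham heart, with the widest spread among the KI TAC mice. On the log2(RPKM + 1) scale S100a8 rose by 1.91 in KI hearts (SE 0.37, limma, adjusted p = 0.00254), and in WT hearts its difference of 1.14 (SE 0.37) did not pass the threshold (adjusted p = 0.0580). Its p-values here are descriptions, since S100a8 reached the filter through TAC hearts alone. Over the alternatives the WT value fell on either side of the threshold and passed it in 7 of 21. The adjusted p ran from 0.0171 without KI TAC mouse 7, where the difference stayed 1.14, to 0.194 without WT TAC mouse 9, where it was 0.76 (limma). It passed with a pseudocount of 0.1 (2.74, limma, adjusted p = 0.0180), with limma-voom on reads (3.48, adjusted p = 0.0343) and when only the WT groups were fitted (adjusted p = 0.0403). Under quantile normalization (limma, adjusted p = 0.114) and median-ratio scaling (adjusted p = 0.0951) it did not. Per read of depth, S100a8 reads were 9.49 times as many in WT TAC as in WT sham hearts (95% exact counting interval 5.09 to 19.6) and 31.5 times as many in KI TAC as in KI sham hearts (15.1 to 79.3). These intervals cover counting error only, not the differences between mice.

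S100a9, the partner of S100a8 in calprotectin, was also near silence in sham hearts. Its levels were 0.477, 0.162 and 0.157 RPKM in WT sham hearts and 0.0784, 0 and 0.0590 RPKM in KI sham hearts, where the 3 libraries together held 2 reads of it. It measured 2.83, 4.40 and 1.54 RPKM in WT TAC and 12.3, 6.59 and 2.55 RPKM in KI TAC hearts, with no overlap between TAC and sham in either genotype. S100a9 rose by 1.58 in WT hearts (SE 0.36, limma, adjusted p = 0.0137) and by 2.77 in KI hearts (SE 0.36, adjusted p = 0.000228) on the log2(RPKM + 1) scale. Because S100a9 reached the filter through TAC hearts alone, these p-values are descriptions. The WT call was lost when WT sham mouse 2, WT sham mouse 3 or WT TAC mouse 9 was left out, at limma adjusted p of 0.0514, 0.0513 and 0.0507. The ratio of reads per depth was 10.4 in WT (95% exact counting interval 5.76 to 20.7) and 161 in KI hearts (44.3 to 1336), where the width of the interval comes from the 2 reads in KI sham hearts.

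S100a8 and S100a9 followed each other within the TAC groups. There the order of the mice was the same for both genes, highest in mouse 9 among WT TAC hearts and in mouse 5 among KI TAC hearts, and lowest in mouse 10 and mouse 7. The ratio of S100a9 to S100a8 RPKM was 1.86 ± 0.71 (SD, n = 3) in WT TAC and 2.0 ± 0.24 (SD, n = 3) in KI TAC hearts, and an exact two-sided permutation test of the ratio gave p = 0.80, where 3 against 3 mice cannot go below 0.10. In sham hearts, at 0 to 8 reads per library, KI sham mouse 2 had the most S100a8 of its group and no S100a9 read. The genes are neighbours on the chromosome, on opposite strands.

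Markers of the cells that carry calprotectin moved in part with these genes. Of 16 neutrophil markers 4 were measured here (Csf3r, Mmp8, Mmp9 and Lcn2), and the 3 that could be tested rose in both genotypes, while Mmp8 was below the filter. Of all genes tested, 6.96% rose in WT and 8.57% in KI hearts. Csf3r, Mmp9 and Lcn2 were under 1 RPKM in every sham heart and reached the filter through TAC hearts alone, so their count and their p-values between TAC and sham hearts are descriptions. None of them was called between KI TAC and WT TAC hearts. The summed level of the 4 was 1.31 to 1.39 RPKM in WT sham, 8.31 to 24.9 in WT TAC, 1.04 to 1.13 in KI sham and 14.4 to 63.2 RPKM in KI TAC hearts. In TAC hearts most of that sum was Lcn2, lipocalin 2, which other cells of an injured tissue also make, at 5.60 to 21.0 RPKM in WT TAC and 10.0 to 62.1 RPKM in KI TAC hearts. Csf3r, the receptor for the neutrophil growth factor G-CSF, rose by 0.86 in WT (limma, adjusted p = 0.0146) and by 0.63 in KI hearts (adjusted p = 0.0363). Without Lcn2, the other 3 markers summed to 2.71, 3.87 and 2.14 RPKM in WT TAC mice 7, 9 and 10 and to 4.34, 1.86 and 1.08 RPKM in KI TAC mice 5, 6 and 7, against 0.334 to 0.932 RPKM in sham hearts. In both TAC groups the mice had the same order for this sum as for S100a8 and S100a9. Lcn2 ran in the reverse order in the KI TAC mice, at 10.0, 26.7 and 62.1 RPKM, so mouse 7, with the lowest S100a8 and S100a9 of its group, had the most Lcn2.

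Of 10 monocyte and macrophage markers 8 were measured. Their summed RPKM was 68.7 to 114 in WT sham, 142 to 208 in WT TAC, 74.0 to 100 in KI sham and 82.0 to 110 RPKM in KI TAC hearts, so WT TAC stood apart and KI TAC overlapped its sham group. Of the 7 tested, 5 rose in WT TAC hearts, where 6.96% of all genes rose, and 1 fell in KI TAC hearts (Csf1r), where 14.7% of all genes fell. Set against WT TAC, 4 (Adgre1, Csf1r, Chil3 and Fcgr1) were lower in KI TAC hearts, as were 914 of the 11240 genes tested. Chil3 and Fcgr1 were under 1 RPKM in every sham and KI TAC heart and entered the test through WT TAC hearts alone, so their calls are descriptions. S100a8 and S100a9 averaged more RPKM in KI TAC than in WT TAC, by differences that did not pass the threshold. The part of either cell type in the S100 values was not tested. The 4 lymphocyte markers looked for were not analysed here.

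**Figure D2:**
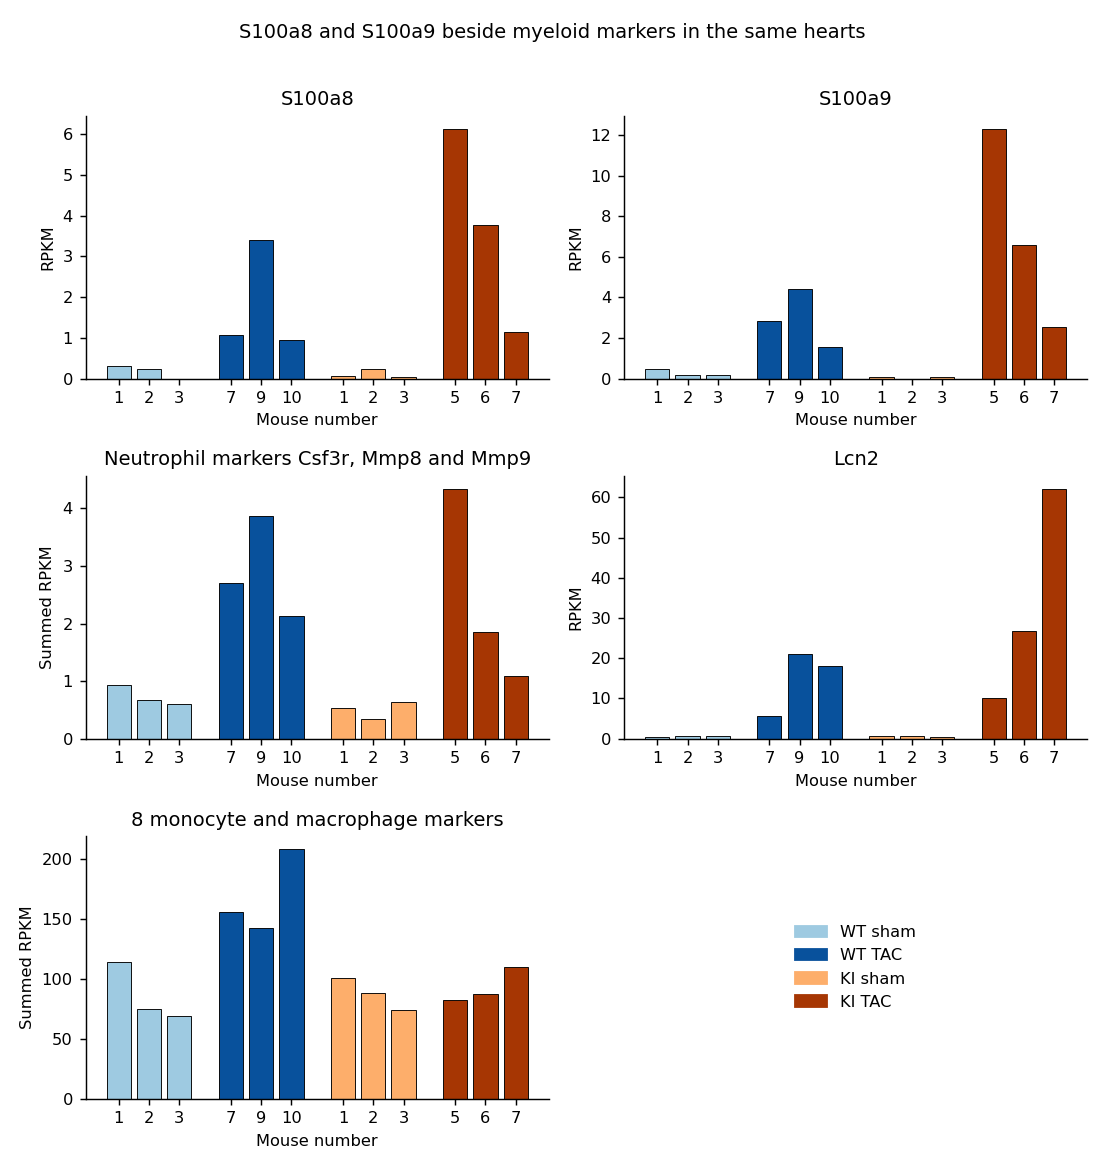
RPKM of S100a8 and S100a9 (upper row), summed RPKM of 3 neutrophil markers and RPKM of Lcn2 (middle row) and summed RPKM of 8 monocyte and macrophage markers (lower row), 1 bar per mouse with the mouse numbers on the x axis and bars coloured by group. KI TAC mouse 5 has the highest S100a9 (12.3 RPKM) and the highest sum of the 3 neutrophil markers (4.34 RPKM), and KI TAC mouse 7 has 2.55 and 1.08 RPKM of these and the most Lcn2 (62.1 RPKM).

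Among the genes known from stromal and motile cells and from membranes, S100a4 and S100a11 rose in both genotypes. S100a4, also called fibroblast-specific protein 1, was at 0.480, 0.362 and 0.280 RPKM in WT sham and at 0.350, 0.681 and 0.264 RPKM in KI sham hearts. It reached 2.40, 2.02 and 4.33 RPKM in WT TAC and 1.36, 0.811 and 2.77 RPKM in KI TAC hearts, without overlap with sham in either genotype. On the log2(RPKM + 1) scale it rose by 1.47 in WT (SE 0.25, limma, adjusted p = 0.00268) and by 0.83 in KI hearts (SE 0.25, adjusted p = 0.0282). As S100a4 reached the filter through TAC hearts alone, these p-values are descriptions. The KI call was lost when KI sham mouse 1, KI sham mouse 3, KI TAC mouse 5 or KI TAC mouse 7 was left out, with limma adjusted p between 0.0534 and 0.105. In group totals these are 18 reads in WT sham, 137 in WT TAC, 22 in KI sham and 90 in KI TAC hearts. The 10 fibroblast markers, all measured, summed to 560 to 861 RPKM in WT sham, 495 to 1056 in WT TAC, 624 to 750 in KI sham and 499 to 722 RPKM in KI TAC hearts, with overlap between TAC and sham in both genotypes. Of these 10, Postn rose and Gsn fell in WT hearts, where 6.96% of all genes rose and 4.60% fell. Lum fell in KI hearts, where 14.7% of all genes fell. The part of fibroblasts in the S100a4 values was not tested. The gene closest to S100a4 in pattern over the hearts was Cd68, a macrophage marker, as given below, and the part of macrophages was not tested either.

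S100a11, a partner of annexins A1 and A2, was the best measured of the genes that rose in both genotypes. Its RPKM was narrowly spread in WT sham hearts, at 12.1, 11.5 and 12.3, and was 12.8, 17 and 12.4 in KI sham hearts. It reached 28.2, 18.1 and 36.5 RPKM in WT TAC and 27.8, 20.7 and 24.6 RPKM in KI TAC hearts, every one of them above every sham heart. The increase was 1.09 (SE 0.23, limma, adjusted p = 0.00853) in WT and 0.76 (SE 0.23, adjusted p = 0.0288) in KI hearts on the log2(RPKM + 1) scale. The WT call held in each of the 21 alternatives tried (limma adjusted p 0.00183 to 0.0393). The KI call was lost without KI sham mouse 1, KI sham mouse 3, KI TAC mouse 5 or KI TAC mouse 7 (limma adjusted p 0.0547 to 0.111). The part of the AP-1 matches printed above in this rise was not tested, and the windows of S100a4 and S100a9, called in both genotypes, held none.

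S100a10, the light chain of the annexin A2 complex that binds tissue plasminogen activator, rose past the threshold in KI hearts. It was at 9.37, 13.8 and 10.1 RPKM in WT sham and 15.1, 13.2 and 17.2 RPKM in WT TAC hearts, which overlapped. KI sham hearts held 9.52, 16 and 11 RPKM and KI TAC hearts 22.5, 19.5 and 24.5 RPKM, which did not. The log2 fold change was 0.84 in KI (SE 0.21, limma, adjusted p = 0.0110) and 0.43 in WT hearts (SE 0.21, adjusted p = 0.194). Leaving out KI sham mouse 3 brought the KI value just over the threshold (limma, adjusted p = 0.0517). The difference between these responses did not pass the threshold either (0.41, 95% interval -0.22 to 1.04).

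S100a6, calcyclin, had a higher mean in TAC hearts of both genotypes but overlapped sham in both. WT sham hearts had 5.10, 3.50 and 2.84 RPKM and WT TAC hearts 7.28, 4.40 and 8.54 RPKM. KI sham hearts had 3.56, 4.77 and 2.93 RPKM and KI TAC hearts 5.14, 4.43 and 12.5 RPKM, where the mean rests largely on mouse 7. The log2 differences of 0.67 in WT (SE 0.32, limma, adjusted p = 0.185) and 0.71 in KI hearts (SE 0.32, adjusted p = 0.123) did not pass the threshold, although the KI value did under median-ratio scaling of the libraries (0.82, adjusted p = 0.0494). KI TAC mouse 7 was also the highest of its group for S100a4, S100a10, S100a13 and S100a16, and the lowest for S100a8 and S100a9.

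**Figure D3:**
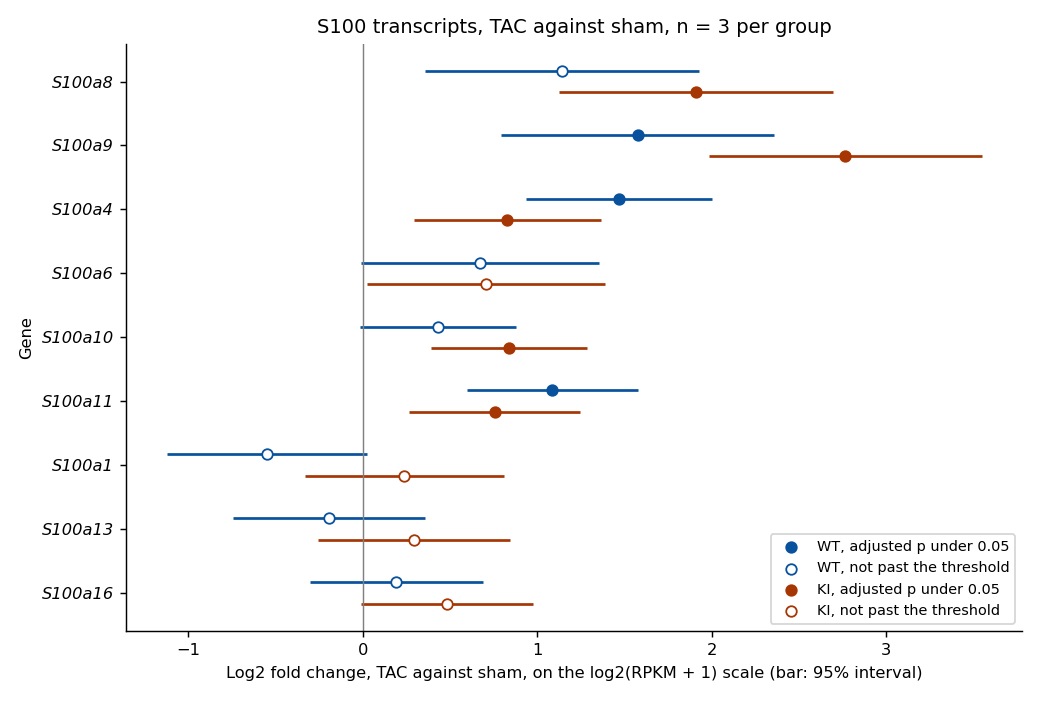
Log2 fold change of each S100 gene between TAC and sham hearts (x axis, log2(RPKM + 1) scale), in WT (blue) and KI hearts (brown), 3 mice per group, with 95% intervals as bars and filled points for limma adjusted p under 0.05. S100a9 has the largest estimate in both genotypes, 1.58 in WT and 2.77 in KI hearts, and the filled points are 3 in WT and 5 in KI hearts. S100a4, S100a8 and S100a9 reached the expression filter through TAC hearts alone, so their filled points are descriptions.

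S100a1, the cardiomyocyte form, did not pass the threshold after TAC in either genotype. Its levels were 381, 223 and 227 RPKM in WT sham and 164, 197 and 189 RPKM in WT TAC hearts, so every WT TAC heart was below every WT sham heart. KI sham hearts had 193, 375 and 238 RPKM and KI TAC hearts 274, 351 and 296 RPKM, which overlapped. The log2 difference was -0.55 in WT (SE 0.27, limma, adjusted p = 0.196) and 0.24 in KI hearts (SE 0.27, adjusted p = 0.548). S100a1 was read deeply, with 10408 to 19956 reads per group, so the uncertainty lies between mice rather than in counting. Among cardiomyocyte markers, Myh6, Mb and Ckm fell in WT TAC hearts, none of the 8 changed past the threshold in KI hearts, and Tnni3, Mb, Myl2 and Ckm were higher after TAC in KI than in WT.

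S100a13 and S100a16 are broadly expressed, and S100A13 is known for the release of fibroblast growth factor 1 without a signal peptide. S100a13 had 7.4, 4.38 and 4.92 RPKM in WT sham, 3.75, 3.97 and 6.53 in WT TAC, 3.15, 6.72 and 5.52 in KI sham and 5.03, 6.93 and 7.05 RPKM in KI TAC hearts, and the groups overlapped throughout. S100a16 had 7.99, 4.58 and 4.07 RPKM in WT sham, 6.52, 5.64 and 6.61 in WT TAC, 4.78, 8.4 and 5.18 in KI sham and 8.16, 8.02 and 10.1 RPKM in KI TAC hearts. Neither passed the threshold after TAC, with log2 differences of -0.20 and 0.30 for S100a13 and 0.19 and 0.48 for S100a16 in WT and KI hearts. Under median-ratio scaling the KI value of S100a16 passed it (0.60, limma, adjusted p = 0.0485). The highest hearts of the sham groups were the same for S100a1, S100a13 and S100a16, which lie next to each other on the chromosome, but not for these genes alone: KI sham mouse 2 was highest of its group for every member except S100a9, and WT sham mouse 1 for every member except S100a10 and S100a11.

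Between the genotypes no S100 gene passed the threshold. In sham hearts no member was called, where 0.0178% of all genes were, and none had an unadjusted limma p under 0.05, where 0.329% of all genes had. In TAC hearts no member was called, where 11% of all genes were, and 4 had an unadjusted limma p under 0.05, where 30.3% of all genes had. The 11% is 1242 genes, and 216 were called when only the TAC groups were fitted. The difference of KI TAC from WT TAC on the log2(RPKM + 1) scale was 0.74 for S100a1 (95% interval 0.16 to 1.31, limma, adjusted p = 0.0860), 0.92 for S100a9 (0.14 to 1.71, adjusted p = 0.109) and 0.52 for S100a10 (0.07 to 0.96, adjusted p = 0.115). For S100a4 it was -0.59 (-1.12 to -0.05, limma, adjusted p = 0.130). The intervals of S100a6 (-0.66 to 0.71), S100a11 (-0.62 to 0.36), S100a13 (-0.18 to 0.92), S100a16 (-0.07 to 0.92) and S100a8 (-0.10 to 1.47) included 0, and the data allow differences up to these sizes. S100a1, S100a10 and S100a16 were higher in every KI TAC than in every WT TAC heart, as were 1139 of the 11240 genes tested. In either direction, the groups did not overlap for 29.5% of all genes. In sham hearts S100a9 was lower in every KI than in every WT mouse, with 2 against 12 reads (ratio 0.154, 95% exact counting interval 0.0167 to 0.690), and S100a11 was higher in every KI mouse, where 3.27% of all genes did not overlap. That interval covers counting error only, and 8 of the 12 WT reads came from WT sham mouse 1. Between mice, the unadjusted limma p of S100a9 in sham hearts was 0.478. The S100a9 level in sham hearts enters both its ratio of 161 in KI hearts and its interaction.

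The difference of the TAC responses, tested as the interaction of genotype and surgery, passed the threshold for no member, as for 0% of all genes, and S100a9 alone among the members had an unadjusted limma p under 0.05, where 14.8% of all genes had. For S100a9 the interaction was 1.19 (95% interval 0.08 to 2.30, limma, adjusted p = 0.309). These values depended on single TAC mice, in both directions. Without KI TAC mouse 5, the heart with the most S100a8 and S100a9, the difference of KI TAC from WT TAC was 0.47 for S100a9 (limma, adjusted p = 0.345) and 0.30 for S100a8 (adjusted p = 0.609), and the interaction of S100a9 was 0.74 (adjusted p = 0.429). Without KI TAC mouse 7, S100a9 (1.43, limma, adjusted p = 0.00856), S100a8 (1.17, adjusted p = 0.0237) and S100a4 (-0.88, adjusted p = 0.0224) differed between KI TAC and WT TAC hearts, and the interaction of S100a9 was 1.69 (adjusted p = 0.050, just under the threshold). The S100a4 difference of -0.59 was -0.34 without WT TAC mouse 10 (limma, adjusted p = 0.385) and -0.35 without KI TAC mouse 6 (adjusted p = 0.426), and that of S100a8 was 1.06 without WT TAC mouse 9 (adjusted p = 0.0557) against 0.68 with all mice. S100a1 differed between KI TAC and WT TAC hearts when libraries were scaled by median ratios (0.89, limma, adjusted p = 0.0441) but not under quantile normalization (0.45, adjusted p = 0.146). In the main comparison the median of all genes was -0.12 between KI TAC and WT TAC hearts and -0.10 between KI TAC and KI sham hearts, and under median-ratio scaling both were within 0.01 of 0.

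**Figure D4:**
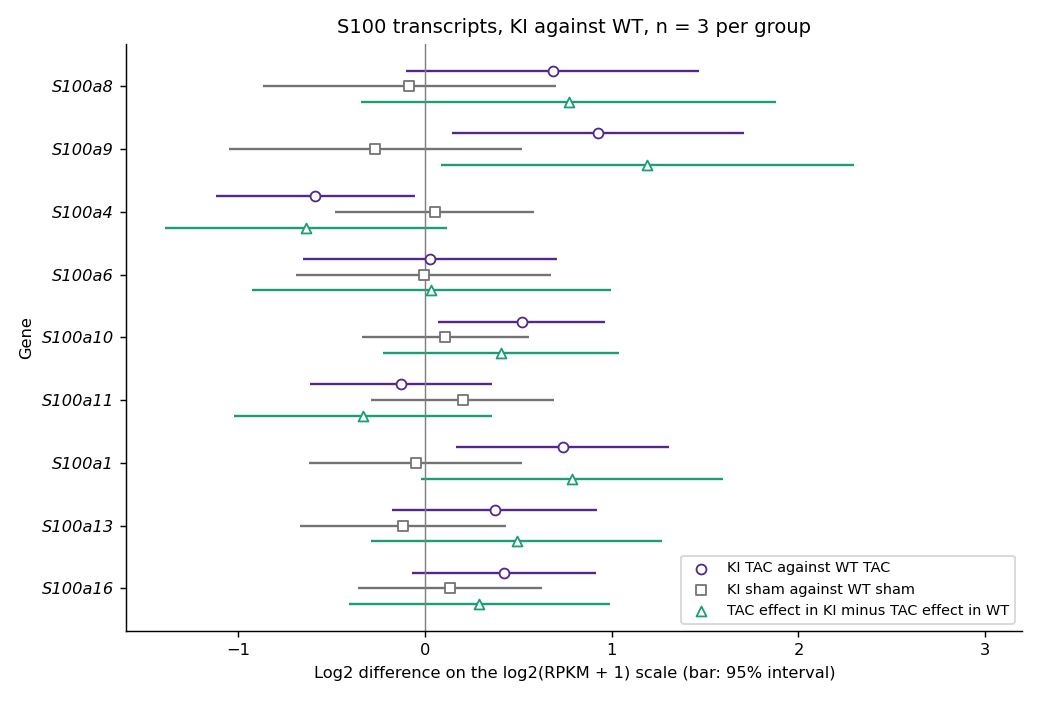
Log2 difference between KI and WT hearts for each S100 gene (x axis, log2(RPKM + 1) scale), with 95% intervals as bars: circles for KI TAC against WT TAC, squares for KI sham against WT sham, triangles for the TAC effect in KI minus that in WT, 3 mice per group. No point passes a limma adjusted p of 0.05, and the intervals of S100a1, S100a4, S100a9 and S100a10 in TAC hearts lie on one side of 0.

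Receptors and partners of the S100 proteins formed a list of 28 genes, of which 25 were measured and all 25 tested. Ager (which encodes RAGE), Syt1 and Plg were not analysed here. In WT hearts 6 rose and 1 fell after TAC, where 6.96% of all genes rose and 4.60% fell, and in KI hearts 7 rose and 1 fell, where 8.57% rose and 14.7% fell. The median log2 fold change of the list was 0.39 in WT and 0.34 in KI hearts, beside 0.04 and -0.10 over all genes tested.

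Of the alarmin receptors, Tlr4, its co-receptor Cd14 and their adaptor Myd88 rose in both genotypes. Tlr4 went from 1.38 ± 0.39 to 3.97 ± 0.03 RPKM (SD, n = 3) in WT and from 1.65 ± 0.58 to 4.37 ± 0.01 RPKM in KI hearts. Its log2 fold changes were 1.07 (limma, adjusted p = 0.00163) and 1.04 (adjusted p = 0.000903). Cd14 rose by 1.28 in both WT (limma, adjusted p = 0.00528) and KI hearts (adjusted p = 0.00259), and Myd88 by 1.00 (adjusted p = 0.00714) and 0.89 (adjusted p = 0.00670). The co-receptor Ly96 stayed near 1 RPKM, with log2 differences of 0.22 and 0.07 that did not pass the threshold. Bsg, which encodes basigin, a receptor for S100A9, was at -0.78 in WT (limma, adjusted p = 0.0519) and 0.09 in KI hearts.

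Of the 6 annexins, Anxa2 rose in both genotypes and no other passed the threshold. Anxa2, the partner of S100A10 and S100A11, went from 6.82 ± 0.51 to 17.8 ± 3.94 RPKM (SD, n = 3) in WT and from 7.65 ± 1.27 to 16.7 ± 3.45 RPKM in KI hearts, log2 fold changes of 1.24 (limma, adjusted p = 0.00234) and 1.02 (adjusted p = 0.00324). Among intracellular partners, Iqgap1, a scaffold at the cell cortex, rose by 0.85 in WT (limma, adjusted p = 0.0135), with a value of 0.53 in KI hearts. Myh9, the non-muscle myosin that S100A4 binds, rose by 1.07 in KI (limma, adjusted p = 0.0176), with a value of 0.73 in WT hearts.

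In the plasminogen system Plaur, the urokinase receptor, had the largest change of the list. It rose from 0.846 ± 0.275 to 5.06 ± 2.2 RPKM (SD, n = 3) in WT (1.66, limma, adjusted p = 0.00262) and from 1.18 ± 0.10 to 13.7 ± 6.29 RPKM in KI hearts (2.68, adjusted p = 5.76e-05). It was the 1 gene of the list that differed between KI TAC and WT TAC hearts (1.26, limma, adjusted p = 0.0167), where 11% of all genes were called. This call was lost when only the groups compared were fitted and when WT TAC mouse 7 was left out. Plat, tissue plasminogen activator, rose by 0.78 in KI (limma, adjusted p = 0.0155) and was at 0.64 in WT hearts (adjusted p = 0.0580).

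Among the genes of proteins that S100A1 acts on, Atp2a2, the calcium pump SERCA2, fell by 0.83 in WT hearts (limma, adjusted p = 0.0142), from 3389 ± 489 to 1901 ± 90 RPKM (SD, n = 3), and was at -0.44 in KI hearts (adjusted p = 0.116). Pln, phospholamban, the inhibitor of that pump, fell by 0.93 in KI (limma, adjusted p = 0.0281) and was at -0.50 in WT hearts. Ryr2, Ttn and Atp5a1 did not pass the threshold in either genotype. None of these 5 genes was called between KI TAC and WT TAC hearts.

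**Figure D5:**
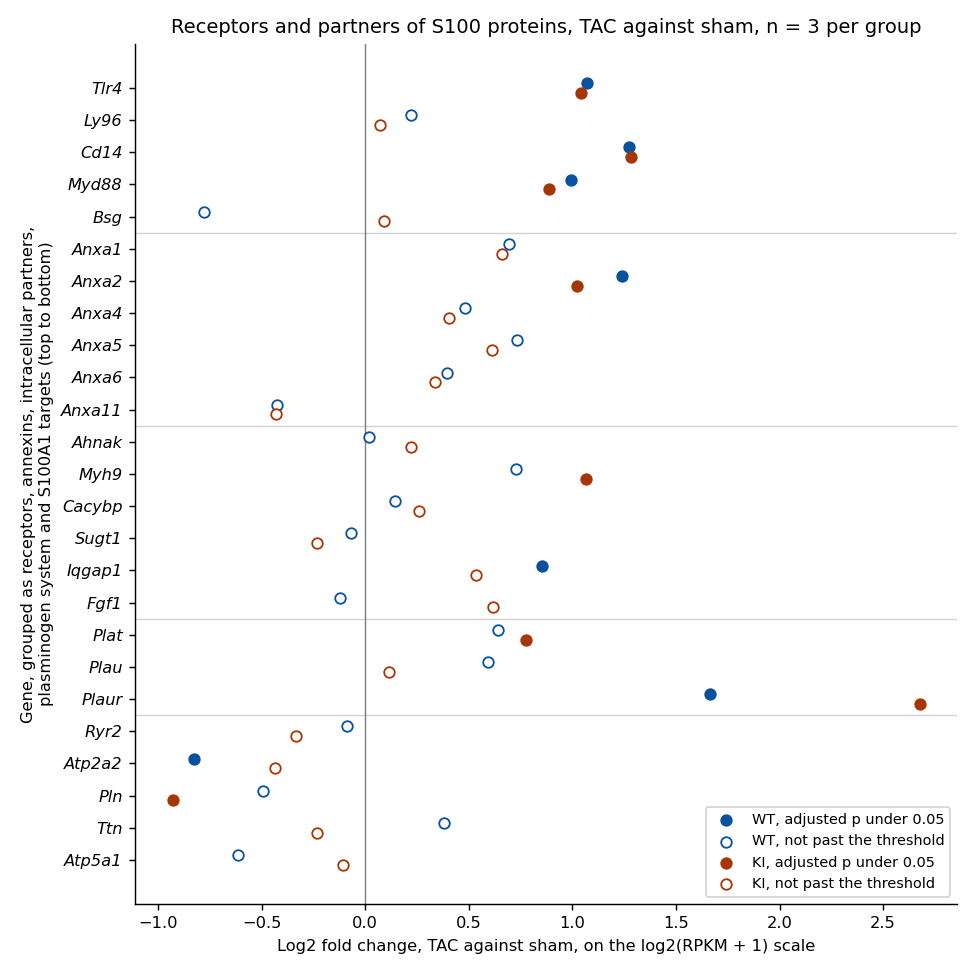
Log2 fold change between TAC and sham hearts (x axis, log2(RPKM + 1) scale) of the 25 receptor and partner genes tested, in WT (blue) and KI hearts (brown), 3 mice per group, with filled points for limma adjusted p under 0.05 and lines between the classes. Tlr4, Cd14, Myd88, Anxa2 and Plaur are filled in both genotypes, with Plaur at 1.66 in WT and 2.68 in KI hearts.

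The genes whose pattern over the 12 hearts was closest to each changed member were found among 10561 genes by the root mean square difference of centred log2(RPKM + 1) values. For S100a11 the closest was its partner Anxa2, at 0.16, where S100a11 itself varied by 0.53 around its mean, followed by Psat1 (0.17) and Tagln2 (0.19). For S100a4 the closest were Cd68 (0.18), a macrophage marker, Rpl3 (0.20), a ribosomal protein gene with near-identical copies that may share its reads, and Frzb (0.20), and for S100a10 they were Coq10b (0.16), Ncl (0.17) and Ifitm2 (0.20). Near S100a8 were Igf2bp2 (0.27) and Sap30 (0.30), and S100a9 was closest to Rnf115 (0.30), Xirp1 (0.31) and Junb (0.34), where S100a8 and S100a9 themselves varied by 0.93 and 1.23 and S100a10 by 0.42. The alarmin genes were 0.38 apart from each other. Such likeness over 12 hearts in 4 groups is a description of levels.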

How the data were processed

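Per the labels and the study's methods, poly(A) RNA was sequenced as single reads of 75 bases from strand-specific libraries. The submitters' processing notes name Trimmomatic 0.39, HISAT2 2.2.1 (GRCm38), HTSeq 0.6.1 and edgeR 3.18.1. The deposited values fit RPKM: multiplied by GENCODE M21 exon lengths, each mouse's values sum to 997702 to 1002226. Low values were whole multiples of 1 read (95.4% to 96.8% within 0.02 of a whole read), which gave reads and depth.

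From these, log2(RPKM + 1) was fitted with limma 3.58.1 (R 4.3.3, eBayes with trend) over the 11240 genes that reached 1 RPKM in 3 or more mice, with 4 groups and all 12 mice, and p-values were Benjamini-Hochberg adjusted over all genes tested. The model was tested on simulated reads. Alternatives were a pseudocount of 0.1, 2 other filters, quantile and median-ratio scaling, limma-voom on recovered reads, a constant variance prior, a fit of the groups compared, an adjusted p of 0.10 and leaving out each mouse. Single ratios were tested by exact permutation (SciPy 1.17.1).

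Named are all 9 members, partners past the threshold in any comparison, the 3 genes closest to each changed member (without S100, predicted and pseudogenes; 1 of them is not reported here) and cell markers. Partners named that passed in no comparison were chosen after their values were seen. The members and lists were chosen with earlier results of these data known. The labels give mice as separate samples, and p-values measure the spread between them. Of the marker lists beside those in the text, endothelial (6 of 6), mesothelial (2 of 6), Schwann cell (3 of 4), erythroid and platelet (6 of 6) and keratinocyte (1 of 3) markers were measured. Of these 6, 1, 2, 5 and 0 reached the filter, and no one of those was called between TAC and sham hearts of either genotype.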

Additional observations from a re-analysis of the deposited data

Results flagged for a closer look

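S100a1 is listed because its TAC response pointed in opposite directions in the genotypes. All 3 WT TAC hearts were below the mean of the WT sham hearts, and all 3 KI TAC hearts were above the mean of the KI sham hearts. The difference between the responses was 0.79 on the log2(RPKM + 1) scale (95% interval -0.02 to 1.60), with an unadjusted limma p of 0.0556 and an adjusted p of 0.345, so it did not pass the threshold. Leaving out WT sham mouse 1, the heart with the most S100a1, changed the WT difference from -0.55 to -0.30. The KI difference of 0.24 was 0.03 without KI sham mouse 1 (limma, adjusted p = 0.953) and 0.51 without KI sham mouse 2 (adjusted p = 0.182).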

How the results depend on the processing

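Of 945 values of single members under the alternatives, 918 kept their direction and side of the threshold, or changed sign without being called, 15 moved past the threshold and 12 no longer passed it. No called value changed direction. Of the members called in KI TAC against KI sham hearts (5), leaving out 1 mouse gave 2 to 5 and median-ratio scaling gave 7. Between KI TAC and WT TAC hearts (0 called), median-ratio scaling and an adjusted p of 0.10 each gave 1, and leaving out 1 mouse gave 0 to 3. For the interaction (0 called) leaving out 1 mouse gave 0 to 1. In WT hearts the count stayed within 2 to 4.

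Of the partner genes, an adjusted p of 0.10 gave 12 in WT hearts against 7, and leaving out 1 mouse gave 5 to 10 in KI hearts against 8. Between KI TAC and WT TAC hearts (1 called), median-ratio scaling gave 3, the fit of the groups compared 0, an adjusted p of 0.10 gave 4, and leaving out 1 mouse gave 0 to 2. The cause of these shifts was not tested.

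Mouse numbers 1 to 3 occur in both sham groups. With them as a replicate block, 0 members were called in sham hearts, as without it, and 0 of all genes against 2 (5 when only the sham groups were fitted, 4 without KI TAC mouse 6). The deviations of same-numbered sham mice from their group means were correlated at -0.22, -0.30 and 0.44, not all positive, so the numbers were not taken as pairs. Number 7, the 1 number that both TAC groups hold, had a correlation of 0.09, and 1 shared number allows no block.

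Counts over all genes moved more. WT TAC against WT sham gave 1299, and 596 to 863 without WT sham mouse 1, 2 or 3 or WT TAC mouse 7. KI TAC against KI sham gave 2620, and 1453 without KI sham mouse 3. KI TAC against WT TAC gave 1242, 216 when only these groups were fitted, and without WT TAC mouse 7 or 10 it gave 162 or 797, without KI TAC mouse 5 or 6 it gave 646 or 186. The interaction gave 0, and 240, 8 and 182 without WT TAC mouse 9, WT TAC mouse 10 and KI TAC mouse 7. An adjusted p of 0.10 gave 2064 in WT hearts, 2293 between the TAC groups and 50 for the interaction. With 2 to 12 reads of S100a8 or S100a9 per sham group, their sham levels are limited by depth.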
